A study of Homo sapiens with 6 samples.

Results

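The genes of chromosome 6 that start at 70 Mb or beyond, on the long arm of the chromosome, were followed through an MLL2 knockout and a PRMT1 knockdown in human 293T cells. A gene was taken when its smallest annotated start on chromosome 6 (hg38) was 70000000 or more and its count per 1000000 counts of the library (CPM) averaged at least 4 over the 6 libraries. That gave 278 genes, out of 1473 annotated from 70 Mb on, 776 of them with a count and 424 that entered the test, and out of 60669 genes in each file. The stretch was chosen by knockout values measured in these same libraries, its genes being lower there than in the control, so every knockout value of these genes is a description and carries no test.

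Total RNA was sequenced from 293T cells, which derive from human embryonic kidney and were transformed in culture, in 3 groups of 2 libraries. The control was labelled WT with no treatment, the second group had lost MLL2 by CRISPR/Cas9 editing according to its label, and in the third PRMT1 was knocked down by a short hairpin RNA. The labels call the libraries biological replicates without naming separate cultures, so the p-values given below measure only how these samples vary, which may be technical. Alignment names in the file headers hold shNT for the control and knockout and shPR for the knockdown, names that the labels do not explain. Whether the knockout is 1 clone, and whether control and knockout cells carry a hairpin, is not given in the sources used here.

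A chromosome arm holds many genes of unrelated function, which share their DNA copies and their neighbourhood. Cultured lines such as 293T carry altered chromosome numbers, and transcript levels usually follow the number of gene copies, although feedback holds some genes closer to their former level, which is called buffering. MLL2 is a histone H3 lysine 4 methyltransferase that acts at promoters and enhancers, and PRMT1 is the main enzyme of asymmetric arginine dimethylation. DNA copies were not measured here, and whether they differed between the groups was not tested.

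Promoters are shown, as examples, for 2 of the genes lowest in the knockout (B3GAT2 and MICAL1) and for 2 of those highest (ZBTB2 and BCLAF1). Each line runs from 250 bases before to 50 bases after the RefSeq start, on the minus strand of GRCh38.p14, 5′ to 3′. Capitals mark matches to GGGCGG or CACGTG on either strand. The windows are chr6:70957011-70957310 (B3GAT2), chr6:109465919-109466218 (MICAL1), chr6:151391510-151391809 (ZBTB2) and chr6:136289797-136290096 (BCLAF1).
B3GAT2: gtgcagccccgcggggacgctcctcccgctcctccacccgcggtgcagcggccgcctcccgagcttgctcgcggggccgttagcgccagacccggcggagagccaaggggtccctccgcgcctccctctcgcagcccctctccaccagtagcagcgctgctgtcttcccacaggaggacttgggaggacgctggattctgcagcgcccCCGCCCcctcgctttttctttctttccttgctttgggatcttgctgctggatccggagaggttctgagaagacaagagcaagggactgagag
MICAL1: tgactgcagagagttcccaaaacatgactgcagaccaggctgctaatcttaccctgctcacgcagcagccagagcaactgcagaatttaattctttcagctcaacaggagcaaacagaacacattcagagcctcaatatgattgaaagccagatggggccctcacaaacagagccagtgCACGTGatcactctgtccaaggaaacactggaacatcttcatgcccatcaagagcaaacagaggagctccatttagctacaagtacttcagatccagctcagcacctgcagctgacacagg
ZBTB2: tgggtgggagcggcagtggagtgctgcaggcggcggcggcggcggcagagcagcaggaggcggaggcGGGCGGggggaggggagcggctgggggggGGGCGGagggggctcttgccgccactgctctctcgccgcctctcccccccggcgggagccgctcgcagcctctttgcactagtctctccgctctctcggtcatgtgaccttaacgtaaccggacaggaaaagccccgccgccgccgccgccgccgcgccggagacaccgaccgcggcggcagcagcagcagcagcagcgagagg
BCLAF1: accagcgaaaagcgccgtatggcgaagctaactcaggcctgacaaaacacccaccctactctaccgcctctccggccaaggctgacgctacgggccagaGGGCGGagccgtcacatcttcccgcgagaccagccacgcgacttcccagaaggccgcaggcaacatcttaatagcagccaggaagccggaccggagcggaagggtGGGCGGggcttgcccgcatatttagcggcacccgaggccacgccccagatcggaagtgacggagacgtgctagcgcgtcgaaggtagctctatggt

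The MICAL1 window held 2 CpG dinucleotides and a CACGTG, the E-box bound by factors such as MYC and USF, and no GGGCGG, the GC box bound by SP1. This window lies within ZBTB24, which spans 109462594 to 109483219 on the same strand. Its letters are thus also those of the neighbouring gene and may not describe a promoter of MICAL1. B3GAT2 held 24 CpG and 1 GC box on the opposite strand, ZBTB2 36 CpG, and BCLAF1 29 CpG. Of high genes not shown, SIM1 held 25 CpG and a GC box, and SGK1 held 7 CpG and no GC box. Of low genes not shown, NHSL1-AS1 held 4 CpG and TPD52L1 held 15, neither with a GC box. A RefSeq promoter was matched by symbol for 237 of the 278 genes. GGGCGG was present in 75.9% of them, against 72.3% of the promoters of all genes tested at a mean CPM of at least 4 and 44.6% of all 27305 promoters in the table. CACGTG was in 10.5% (10.5% and 7.43%), CCAAT in 36.7% (37.8% and 35.7%), TATAAA in 8.44% (5.10% and 11.95%) and TGATGNAA in 3.797% (1.49% and 3.67%), each searched on both strands, with overlaps between motifs left in. The median ratio of observed to expected CpG was 0.86 in the arm's promoters and 0.86 in those of all genes at that level. Genes with a ratio above 0.6 (203 promoters) had a median knockout log2 difference of -0.30, and the 34 others -0.36. A match describes the letters of a window and does not show that a factor binds there.

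The targeted genes were read first. PRMT1 stood at 306 and 319 CPM in the control, 406 and 425 in the knockout and 38.2 and 34.9 in the knockdown, a knockdown log2 change of -3.10 ± 0.09 (SE, n = 2 against 2, adjusted p = 5.5e-16). These CPM values and all that follow for single genes are scaled by TMM, a normalization for library composition. Both KMT2B and KMT2D have gone by the name MLL2. KMT2B was at 6.74 and 7.53 CPM in the control and 7.12 and 7.36 in the knockout. KMT2D was at 22.5 and 17.0 CPM and at 20.8 and 24.2, so neither transcript was lower, and since an edit of a few bases can leave a transcript in place these counts do not check the knockout label. Library totals ran from 20061471 to 22351532 counts. LIN28B (112 to 185 CPM) and VIM (490 to 751 CPM) were expressed in all libraries, while PTPRC, CD3E, HBB, ALB and KRT14, markers of blood, liver and squamous cells, were at or under 0.299 CPM, and the kidney gene PAX2 was at or under 0.541 CPM.

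In the knockout, the 278 genes had a median log2 difference from control of -0.30, a ratio of 0.810, with quartiles of -0.56 and -0.13. The 328 genes of chromosome 6 under 60 Mb, taken at the same level, had a median of 0.02, and the 11464 genes tested at that level anywhere a median of 0.03. Each library showed it alone. The median of the arm's genes against both controls was -0.31 and -0.32 in the knockout libraries, whereas 1 control against the other gave 0.01. Set against the knockdown in place of the control, the knockout median was -0.34. As a share of all counts, the 278 genes made up 3.30% and 3.29% in the control, 2.54% and 2.53% in the knockout and 3.43% and 3.31% in the knockdown. In bulk RNA, fewer cells of a kind and less RNA per cell cannot be told apart. Chromosome 8 was the other chromosome with a low knockout median (-0.32), and the remaining ones lay between -0.04 (X) and 0.09.

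**Figure D1:**
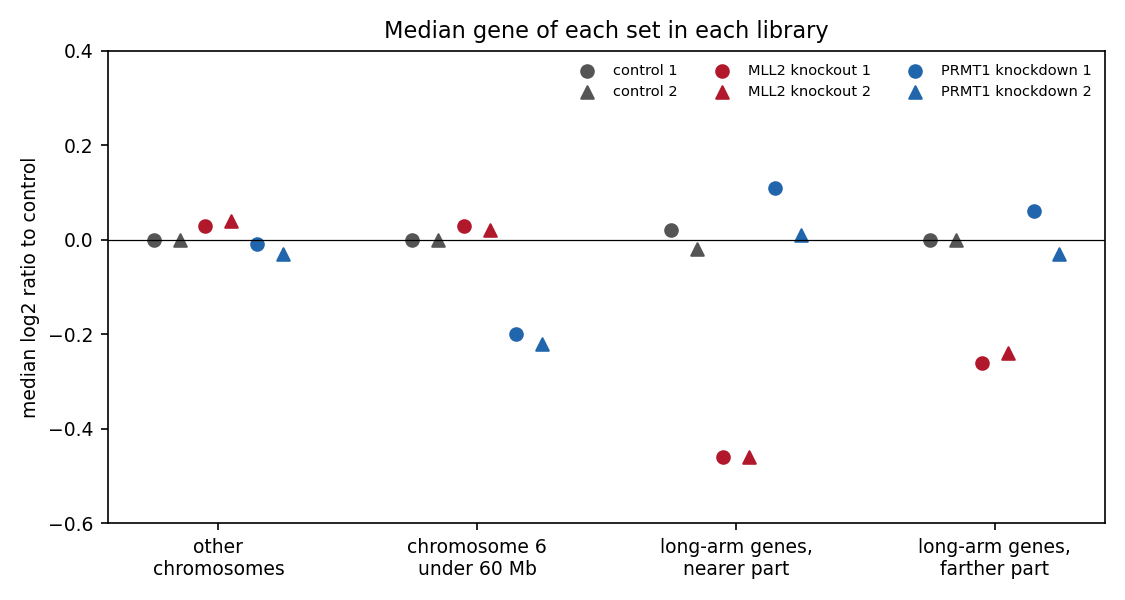
Median log2 ratio to control (vertical axis) of 4 gene sets in each library: genes on other chromosomes, chromosome 6 under 60 Mb, and the genes from 70 Mb on before and after the PREP and ATG5 step. Control libraries are set against each other, circles are replicate 1 and triangles replicate 2. Both knockout libraries (red) sit low for the long-arm sets and near 0 for the others.

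Of the 278 genes, 236 (84.9%) had a knockout value under 0, against 45.8% of all genes tested at that level. In 207 genes (74.5%) both knockout libraries lay below both control libraries, against 32.5% of all genes tested at any level. At an adjusted p under 0.05, 134 were called lower, where 12.1% of all genes tested were called lower, and 9 were called higher, where 10.3% were. Leaving out knockout 2, control 1 or control 2 left 81, 87 and 86 called lower, and the genes called higher ranged from 1 (without control 1) to 14 (without either knockdown library). Nothing is read from these counts, since this contrast chose the stretch. The genes just inside the CPM limit were ENSG00000218426, DLL1 and ENSG00000260000, with knockout log2 differences of -0.52, -0.52 and -0.96. Just outside it were COL12A1 (-0.76), RAMACL (-0.10) and ENSG00000279453 (-1.51).

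In the main setting, the edge of the low stretch fell in a gene-poor interval near the base of the long arm. The single split that best divided the 609 chromosome 6 genes in the knockout, by absolute deviation from the median of each side, fell between PHF3 and ADGRB3. It lowered the misfit by 9.35%, with medians of 0.02 before it and -0.31 after it. The best split of the knockdown, at 53.1 Mb, lowered the misfit by 2.34%, with medians of -0.22 and 0.06. These percentages also depend on the spread of the values. That spread was wider in the knockdown, with an interquartile range of 0.83 against 0.44 over the 278 genes, so they do not compare the size of the 2 steps. PHF3, a PHD finger protein that binds RNA polymerase II, starts at 63.6 Mb and stood at 229 and 214 CPM in the control and 255 and 244 in the knockout. ADGRB3, an adhesion G protein-coupled receptor at 68.6 Mb, stood at 15.1 and 13.6 CPM and at 8.37 and 9.22. LMBRD1, which carries cobalamin out of the lysosome and starts at 69.7 Mb, stood at 26.05 and 26.97 CPM and at 16.1 and 13.5. The knockout libraries were above the control for PHF3 and below it for the 2 genes that follow, with log2 differences of 0.17 ± 0.08, -0.71 ± 0.18 and -0.84 ± 0.15. ADGRB3 and LMBRD1 averaged 11.3 and 19.3 CPM. Their knockdown log2 changes were -0.42 ± 0.18 (adjusted p = 0.0625) and -0.65 ± 0.15 (adjusted p = 0.00129). The place of the split was not fixed to the gene. Among genes of at least 20 CPM, which leaves both out, the split fell between PHF3 and FAM135A (70.4 Mb). It moved to 57.9 Mb, ahead of the noncoding ENSG00000272316 (-1.60 ± 0.29, 4.09 CPM on average), when squared deviations were used and when either knockout library was set against control 1. Between that gene and ADGRB3 lay LINC00680 (0.12), ENSG00000225096 (-0.18) and PHF3. Past 70 Mb the first genes were FAM135A (-0.15 ± 0.10), SDHAF4 (-1.63 ± 0.19) and SMAP1 (-0.57 ± 0.11).

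**Figure D2:**
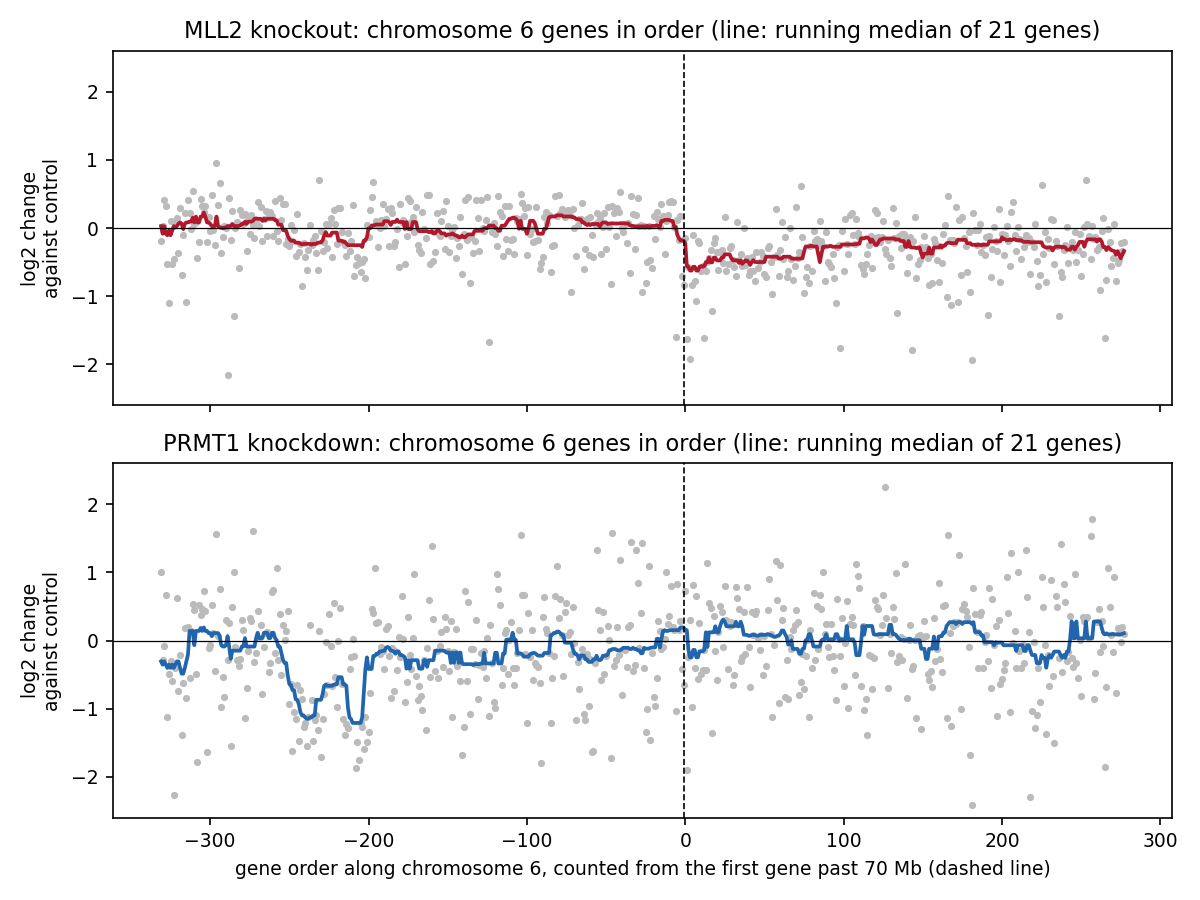
Log2 change of each chromosome 6 gene at a mean CPM of at least 4 (grey points) in gene order, with a running median over 21 genes (line), for the knockout (upper panel) and the knockdown (lower panel). The knockout line drops at the dashed line, which marks the first gene past 70 Mb, and stays under 0, while the knockdown line has its low stretch before it.

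The low level was not even along the arm. By 10 Mb of position, the knockout median was -0.56 from 70 to 80 Mb (23 genes), -0.50 from 80 to 90 Mb (33 genes), -0.42 from 90 to 100 Mb (17 genes) and -0.33 from 100 to 110 Mb (28 genes). From 110 to 120 Mb it was -0.15 (35 genes), and the 5 bins from there to 170 Mb lay between -0.29 and -0.20. The last bin, past 170 Mb, was lower again at -0.34, from 5 genes. A second split within the low stretch fell between PREP, a prolyl endopeptidase (105.3 Mb, -0.63 ± 0.13), and ATG5, which is needed to form autophagosomes (106.0 Mb, -0.04 ± 0.11). The 81 genes before it had a median of -0.48 and the 197 after it -0.25. In genes of at least 20 CPM, which are measured with less error, the medians were -0.45 (55 genes) and -0.21 (150 genes). The medians of single knockout libraries lie apart from those of every other library on both sides of this step. Its place is loose: it fell at 106.0, 109.4 or 110.1 Mb in the 4 pairs of a knockout and a control library, and at 78.9 Mb with squared deviations.

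**Figure D3:**
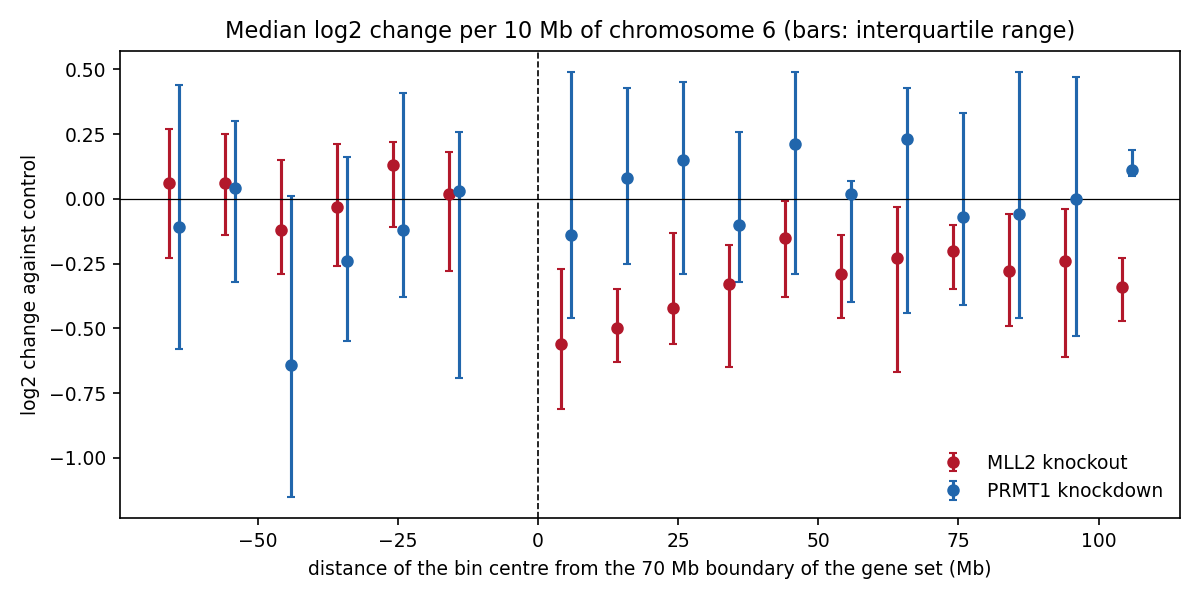
Median log2 change (points) and interquartile range (bars) of genes in 10 Mb bins against the distance from the 70 Mb limit, for the knockout (red) and knockdown (blue). Knockout medians are lowest in the bins from 70 to 100 Mb (-0.56 to -0.42) and between -0.34 and -0.15 beyond 110 Mb, and bins with fewer than 5 genes are left out.

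The interquartile range of the knockout log2 values was 0.44 over the 278 genes, 0.47 under 60 Mb and 0.44 over all genes tested at that level. Within 0.2 of the arm's median lay 130 genes (46.8%). The spread differed by level: the interquartile range was 0.69 in the 36 genes of 4 to 10 CPM and 0.31 in the 64 genes of 100 CPM or more. The median differed by level too, and was -0.33 at 4 to 10 CPM, -0.52 at 10 to 20 CPM, -0.44 at 20 to 50, -0.27 at 50 to 100 and -0.20 at 100 or more. All genes tested in these classes had medians from -0.16 to 0.09. The arm lay under genes of like level by 0.17, 0.45, 0.48, 0.35 and 0.29 in turn, least in the lowest class. Exon length and GC content gave no such order, with Spearman coefficients of -0.05 and -0.09 across the 278 genes, which share libraries and are not replicates.

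A group of 24 genes stood at least 0.5 below the arm's median, at -0.80 or lower, and in all 24 both knockout libraries lay below both controls. They made up 8.63% of the arm's genes, against 3.66% past the same bound under 60 Mb, and 7 of the 24 had a mean CPM of at least 20 (3.41% of the 205 such genes of the arm). The bound is nearer to the arm's median (-0.30) than to that of genes under 60 Mb (0.02). These shares therefore do not compare like with like. NHSL1-AS1, an antisense RNA of NHSL1, was at 14.2 and 14.5 CPM in the control and 3.65 and 3.83 in the knockout (log2 difference -1.94 ± 0.23). B3GAT2, a glucuronosyltransferase of the HNK-1 carbohydrate, was at 6.29 and 6.54 CPM in the control and 1.71 and 1.67 in the knockout (-1.92 ± 0.27). TPD52L1, of the tumour protein D52 family, was at 24.1 and 20.2 CPM and at 6.56 and 6.28 (-1.78 ± 0.17). For these 3 genes the knockout libraries were close together and far from either control. MICAL1, an enzyme that oxidizes actin, was at 9.93 and 9.89 CPM and at 2.73 and 3.09 (-1.77 ± 0.24). SDHAF4, an assembly factor of succinate dehydrogenase, was at 33.7 and 30.0 CPM and at 7.997 and 12.6 (-1.63 ± 0.19). CD109, a surface protein that binds TGF-beta, was at 11.6 and 13.5 CPM and at 4.53 and 3.63 (-1.62 ± 0.21). RPS6KA2, a ribosomal S6 kinase, was the most expressed of the lowest 7, at 35.9 and 39.0 CPM in the control and 11.4 and 13.2 in the knockout (-1.61 ± 0.15). TIAM2, ADGRG6, FAM184A, IRAK1BP1 and MYB followed, between -1.29 and -1.13. MYB, a transcription factor of progenitor cells, was at 16.6 and 13.3 CPM and at 6.15 and 7.46.

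At the other end, 42 genes (15.1%) were at or above control, and in 26 of them both knockout libraries lay above both controls. Those 26 are 9.35% of the 278, where 30.1% of all genes tested had both knockout libraries above. Under 60 Mb 52.4% of genes were at or above control. ACAT2, which joins acetyl-CoA units for cholesterol synthesis in the cytosol, was at 154 and 143 CPM in the control and 245 and 241 in the knockout (0.71 ± 0.09). ZBTB2, a zinc finger transcription factor, was at 17.6 and 21.9 CPM and at 31.7 and 29.7 (0.64 ± 0.13). SIM1, a transcription factor of hypothalamic neurons, was at 7.19 and 6.20 CPM and at 10.96 and 9.66 (0.62 ± 0.22). These 3 lay well above their neighbours, and ACAT2 shares its position with TCP1, which overlaps it on the other strand and was at 0.06. SGK1, a kinase induced by serum and glucocorticoids, was at 7.59 and 8.71 CPM and at 12.5 and 10.1 (0.47 ± 0.17). BCLAF1, a nuclear protein of RNA processing, was at 408 and 398 CPM and at 486 and 512 (0.31 ± 0.08). Libraries did not overlap either for SAMD5 (0.38), CEP85L (0.29), LTV1 (0.28), EPHA7 (0.28), DSE (0.26), STXBP5 (0.24) and GTF3C6 (0.22).

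**Figure D4:**
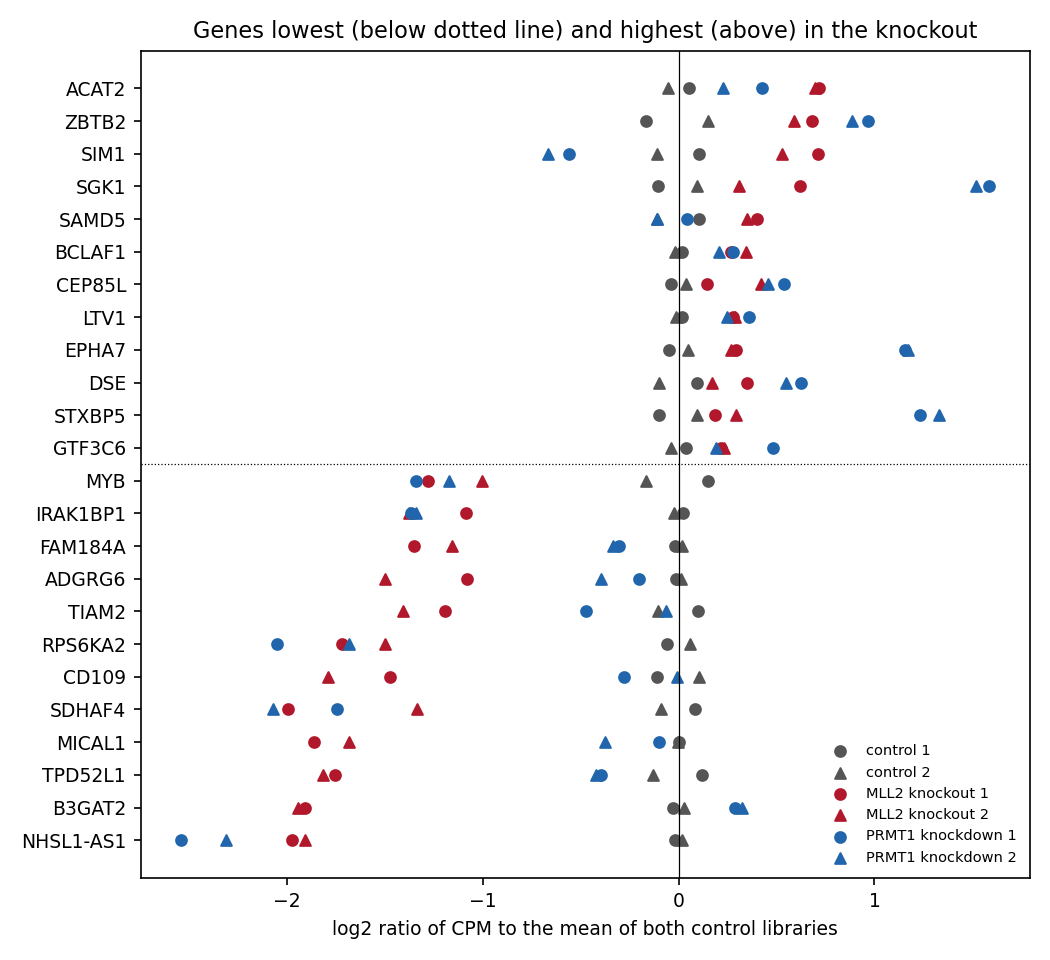
Log2 ratio of CPM to the control mean in each library for the 12 lowest (below the dotted line) and 12 highest (above it) genes in the knockout whose libraries do not overlap the control. Red points are the knockout, blue the knockdown and grey the control libraries. The blue points lie near the control for B3GAT2, MICAL1 and CD109 and far below it for NHSL1-AS1, SDHAF4 and RPS6KA2.

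The most abundant product of the arm was EEF1A1, the elongation factor that brings aminoacyl-tRNA to the ribosome. It stood at 13112 and 13426 CPM in the control, 8648 and 8519 in the knockout and 10153 and 8839 in the knockdown (knockout log2 difference -0.63 ± 0.09). RPS12, a protein of the small ribosomal subunit, stood at 1172 and 1043 CPM, 808 and 745, and 878 and 729. Both were lower in all 4 depleted libraries than in either control, with knockdown log2 changes of -0.48 ± 0.09 (adjusted p = 1.5e-04) and -0.46 ± 0.09 (adjusted p = 3.6e-04). Both have many near-identical pseudogenes, and the authors' counting left out reads of low mapping quality, so their levels are uncertain. Without EEF1A1, the arm's share of counts was 2.02% and 1.98% in the control, 1.70% and 1.70% in the knockout and 2.39% and 2.36% in the knockdown. The knockdown shares were thus above both controls without this gene.

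The arm also encodes subunits of complexes whose partners lie outside the stretch, which gives a view of the same complex elsewhere. Of these partners, MED20, TAF8 and TAF11 lie on chromosome 6 under 60 Mb. TAF2 (-0.36) and VIRMA of the m6A writer (-0.29) lie on chromosome 8, which also had a low knockout median. ORC3 of the origin recognition complex, which licenses replication, was at 75.8 and 76.9 CPM in the control and 50.2 and 48.7 in the knockout (-0.63 ± 0.11), while its 5 partners had a median of 0.31. PSMB1 of the proteasome core was at 379 and 360 CPM and at 326 and 305 (-0.23 ± 0.09), under all of its 13 partners, which ran from 0.00 to 0.38. TBP, the TATA-binding subunit of TFIID, was at -0.34 ± 0.12 against a median of 0.10 in 13 partners, with TAF2 and TAF12 lower (both -0.36). GTF2H5 of TFIIH was at -0.33 against a partner median of 0.09, with ERCC2 as low (-0.33). NUP43 of the nuclear pore was at -0.20 against 0.13, with NUP160 lower (-0.31). MAP3K7, the TAK1 kinase, was at -0.42, while its adaptor TAB2, also on the arm, was at 0.01, and the adaptors TAB1 and TAB3 outside it were at -0.01 and 0.22. In the Mediator complex, which links enhancer factors to RNA polymerase II, CCNC (-0.45), CDK19 (-0.38) and MED23 (-0.16 ± 0.09) lay below the 28 partners listed. The lowest of these, MED4, was at -0.14, within the error of MED23. The partners listed do not cover every subunit of this complex. SF3B5 of the spliceosome (-0.09), HDAC2 (-0.11) and WTAP of the m6A writer (0.02) lay within the range of their partners. In the BAF and PBAF remodellers ARID1B was at -0.33 and PHF10 at 0.06, both within the partners' range of -0.38 to 0.32. TCP1 of the chaperonin was at 870 and 890 CPM in the control and 928 and 909 in the knockout (0.06 ± 0.09), against 0.04 to 0.46 in its 7 partners.

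**Figure D5:**
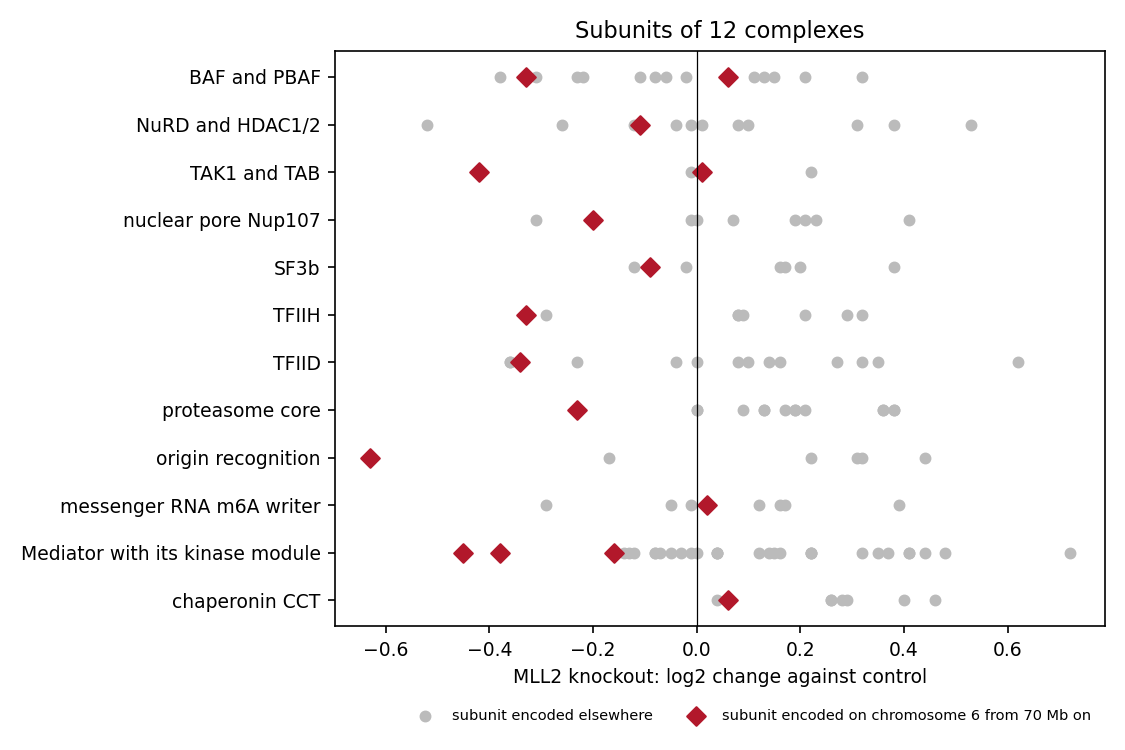
Knockout log2 change of the subunits of 12 complexes at a mean CPM of at least 4, with those encoded on the arm as red diamonds and their partners as grey points. Diamonds for ORC3 (-0.63), PSMB1 (-0.23) and the 3 Mediator genes lie to the left of every partner listed, MED23 only narrowly. Those for TCP1, WTAP and HDAC2 lie among their partners.

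By function, the knockout medians were alike in sign, which the choice of the stretch by its low knockout values makes likely for any list of its genes. Of all 278 genes 48.2% were called lower and 3.24% higher, against 12.1% and 10.3% of all genes tested. Lists of the arm's genes were written by role, and the counts called at an adjusted p under 0.05 are given with the same reserve as above. Membrane traffic and endoplasmic reticulum genes (27 of 32 listed passed the CPM limit) had a median of -0.39 with 16 called lower, for example SEC63 of the translocon (-0.78) and the vesicle fusion protein STX7 (-0.80). Kinase and phosphatase signalling (22 of 26) had a median of -0.36, with 13 lower and 1 higher. Cytoskeleton and adhesion (17 of 20) had -0.33, with 12 lower and 1 higher, and included MAP7, a microtubule-associated protein (-1.08). Cell cycle, replication and repair genes (19 of 19) had -0.28, with 8 lower. Chromatin and histone regulators (13 of 15) were nearest to 0, at -0.15, with 2 lower and 1 higher. Mitochondrial proteins (24 of 26, the cytosolic ACAT2 among them) had -0.22, with 10 lower and 1 higher. Of 16 candidate tumour suppressors of the arm, 15 were under 0, where 84.9% of all 278 genes were, so nothing is read from this count. Among them were FOXO3 (-0.57), the ubiquitin ligase HACE1 (-0.72) and the imprinted PLAGL1 (-0.79), with EPHA7 at 0.28.

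The knockdown, which shares its control libraries with the knockout comparison, did not shift the arm as a block. The median log2 change of the 278 genes was 0.04, with quartiles of -0.41 and 0.42, where all genes at that level had a median of -0.02 and the same interquartile range of 0.83. Of the 278 genes 99 rose (35.6%) and 84 fell (30.2%), where 22.2% of all genes tested rose and 25.3% fell, and among genes of at least 4 CPM 28.9% and 31.7%. The 2 knockdown libraries had medians of 0.08 and -0.02. Genes under 60 Mb were lower, with a median of -0.20, and of -0.10 without the 140 genes that start between 25 and 35 Mb, where the large histone and MHC clusters lie. Short transcripts were lower in the knockdown across the genome: the median was -0.42 in the arm's 24 genes with under 2000 bases of exon and 0.23 in its 93 genes with over 8000, against -0.39 and 0.16 over all genes. The part of transcript length in the knockdown values of single genes was not tested.

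Among the arm's genes past the CPM limit, the largest rise in the knockdown was that of RFX6. This gene, a transcription factor of endocrine pancreas, went from 2.30 and 1.82 CPM in the control to 8.66 and 11.1 (2.26 ± 0.29, adjusted p = 1.8e-06), at 1.71 and 1.62 in the knockout. Its control and knockout values were under the CPM limit, and its knockdown libraries alone brought its mean past it. A gene this low in control and knockout enters the set only when high in the knockdown. The first rank of RFX6 therefore depends in part on the limit. SGK1 went to 24.5 and 23.3 CPM, a change of 1.55 ± 0.17 (adjusted p = 2.3e-07). IGF2R, the receptor that delivers mannose 6-phosphate enzymes to lysosomes, was at 149 and 162 CPM in the control, 377 and 522 in the knockdown and 109 and 118 in the knockout. Its knockdown change was 1.53 ± 0.11 (adjusted p = 8.2e-10), with both knockdown libraries above and both knockout libraries below the control. LATS1, a Hippo pathway kinase, was at 41.3 and 34.4 CPM and rose to 87.4 and 104 (1.33 ± 0.11, adjusted p = 6.5e-09). STXBP5, EPHA7, MAP3K5, TMEM30A, SERINC1 and MFSD4B rose by 1.13 to 1.28. CHP1P2, a pseudogene inside IGF2R on the same strand, and ENSG00000235381 rose as well (1.78 and 1.41), and reads of CHP1P2 cannot be told apart from those of IGF2R.

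Those that fell most in the knockdown came from the whole length of the arm. NHSL1-AS1 was at 2.47 and 2.90 CPM (-2.41 ± 0.23, adjusted p = 4.3e-08) and its partner NHSL1 went from 30.1 and 35.4 CPM to 8.90 and 11.5 (-1.68 ± 0.16, adjusted p = 2.4e-08), with 17.3 and 17.0 in the knockout. Counting used the strand, per the file headers. SDHAF4 fell to 9.53 and 7.59 CPM (-1.90 ± 0.19, adjusted p = 6.5e-08), RPS6KA2 to 9.04 and 11.7 (-1.85 ± 0.16, adjusted p = 5.9e-09), IRAK1BP1 by 1.35 and MYB by 1.25. LRP11, a receptor of the LDL receptor family, went from 19.0 and 22.7 CPM to 4.35 and 4.17 (-2.29 ± 0.19, adjusted p = 3.4e-09), with 12.5 and 13.5 in the knockout. LAMA4, a laminin chain, fell by 1.39, SYNE1, a nuclear envelope spectrin protein, by 1.37, CENPW, a kinetochore protein, by 1.29, and PPP1R14C, a phosphatase inhibitor, by 1.28. Of these, PPP1R14C was at 46.2 and 46.3 CPM in the control and 49.0 and 47.1 in the knockout.

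Several genes far from control in the knockout did not pass the knockdown test. B3GAT2 was at 7.83 and 8.03 CPM in the knockdown (0.31 ± 0.24, adjusted p = 0.308), MICAL1 at 9.24 and 7.64 (-0.23 ± 0.22, adjusted p = 0.392) and CD109 at 10.3 and 12.5 (-0.14 ± 0.20, adjusted p = 0.595). ADGRG6 and TIAM2 had values of -0.30 and -0.25. SIM1 was at 4.55 and 4.21 CPM (-0.61 ± 0.23, adjusted p = 0.0319). This call was lost in DESeq2 (adjusted p = 0.079), and in edgeR with no filter beyond 1 count (0.067) or with the compared groups alone (0.079). It was also lost when control 1, control 2 or knockdown library 2 was left out, with log2 changes of -0.50, -0.71 and -0.56. ZBTB2 rose to 38.6 and 36.6 CPM (0.93 ± 0.13, adjusted p = 5.3e-06). The role lists are read against the 28.9% of genes of at least 4 CPM that rose and the 31.7% that fell. Of 13 chromatin regulators 8 rose and 3 fell, although PHIP and SHPRH lost their calls under offsets on exon length and GC content (0.13 and 0.12). Of 27 membrane traffic genes 12 rose and 6 fell, of 19 cell cycle and repair genes 10 rose and 5 fell, of 22 signalling genes 6 rose and 8 fell, and of 17 cytoskeleton and adhesion genes 4 rose and 8 fell. Of the 16 candidate tumour suppressors 8 rose and 1, PLAGL1, fell (-0.63 ± 0.16, adjusted p = 0.00299, and 0.062 without control 1).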

How the data were processed

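Total RNA of 6 libraries of 293T cells was sequenced with a stranded total RNA kit, per the labels. Each deposited file gives the authors' unnormalized read count for every gene. The authors aligned reads to hg38 with STAR 2.7.5a and counted them with featureCounts, version 1.5.0-p1 per the submitters' processing notes and 2.0.1 per the file headers, with GENCODE 34, strand setting 2 and a mapping quality minimum of 10. Genes were kept by filterByExpr (17575 genes), normalized by TMM, and all 6 libraries were fitted in edgeR 4.0.16 (R 4.3.3, glmQLFit and glmQLFTest) with a term per group. Adjusted p-values are Benjamini-Hochberg over all genes tested, called under 0.05. The scripts were tested on simulated data. Alternatives were relative log expression scaling, TMM from genes outside chromosomes 6 and 8, DESeq2 1.42.0, other count filters and limits, fits of the compared groups alone, length and GC offsets, a replicate block and leaving out each library. Gene types and GC content came from GENCODE 29, promoters from RefSeq (GRCh38.p14). Splits of the chromosome used genes at a mean CPM of at least 4, with at least 20 genes a side.

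The genes, lists and rules were chosen with earlier results of these data known. Named genes were, under one rule, the 12 lowest and highest in each depletion whose libraries do not overlap the control, the 10 most abundant, up to 4 per role list, all arm subunits of listed complexes, and the genes nearest to each limit. SEC63, STX7, MAP7, FOXO3 and HACE1 were named after their values were seen.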

Additional observations from a re-analysis of the deposited data

How the results depend on the processing

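The knockout median of the 278 genes was -0.28 at a mean CPM of at least 20, and -0.32 to -0.29 with 1 library left out. Its difference from genes under 60 Mb (-0.33) was -0.40 with offsets on exon length and GC content, -0.31 from 80 Mb on, -0.39 without comparison genes at 25 to 35 Mb (chosen after seeing the data) and -0.34 to -0.32 with 1 library left out. Its interquartile range was 0.52 at a CPM of at least 1, 0.39 at 20, and 0.44 to 0.48 with 1 library left out. Genes called lower (134) were 81 to 161 with 1 library left out, lowest without knockout 2, 87 without control 1 and 86 without control 2. Genes called higher (9) were 5 with TMM from other chromosomes than 6 and 8, and 1 to 14 with 1 library left out, 1 without control 1 and 14 without either knockdown library. The knockout split (68.6 Mb) was at 57.9 Mb with squared deviations, for knockout 1 against control 1 and for knockout 2 against control 1. At a CPM of at least 20 it was at 70.4 Mb.

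In the knockdown, the difference from genes under 60 Mb (0.24) was 0.16 with the length and GC offsets, 0.30 at a CPM of at least 20, 0.15 without 25 to 35 Mb and 0.20 to 0.29 with 1 library left out. The interquartile range was 0.93 at a CPM of at least 1, 0.72 at 20, and 0.80 to 0.83 with 1 library left out. Genes called lower (84) were 53 at a CPM of at least 20, where 205 genes are left, and 61 to 93 with 1 library left out. The split (53.1 Mb) was at 34.3 Mb with squared deviations, 44.2 Mb at a CPM of at least 20 and 43.4 Mb for knockdown 1 against control 2. PHF3 changed sign in the knockdown under the length and GC offsets (-0.06). The causes were not tested. Same-numbered libraries deviated together by r = 0.075, 0.046 and 0.203 (11376 genes), so the numbers were not taken to pair samples. With the replicate number as a block, 147 and 11 genes were called lower and higher in the knockout and 92 and 99 in the knockdown, with medians of -0.30 and 0.05, and none of these counts moved by over 1.5 times. Of 1568 values of named genes in the knockdown under alternatives, 1458 kept direction and call, 84 lost the call and 25 gained it. With 2 libraries a group, small changes of genes at low CPM are not detectable at this depth.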
